A study of Mus musculus with 8 samples.

Results

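The response of LSK cells to red blood cells (RBCs) was examined across all genes, from the 4 LSK libraries of the 8 in the series. LSK cells are bone marrow cells that lack lineage markers and carry Sca-1 and c-Kit, a mixture of hematopoietic stem cells and multipotent progenitors. Wild-type cells from C57BL/6 mice were cultured for 1 day alone (LSK without RBCs, 2 libraries) or together with RBCs (LSK with RBCs, 2 libraries), in the same serum-free medium with cytokines in both arms. The RBCs came from filtered, irradiated mouse blood. After culture RBCs were lysed and CD45-positive cells were sorted and sequenced, so each library holds all leukocytes present at that time, whether or not they still had the LSK phenotype. The other 4 libraries, from HSCs (CD48- CD150+ LSK cells) cultured in the same ways, served to estimate the spread and to test whether an effect differed between the populations. Values are FPKM, fragment counts scaled to transcript length and library size. Of 24346 gene symbols, 11662 reached 1 FPKM or more in 2 or more of the LSK libraries and were tested. The labels do not say whether the 2 libraries of a group came from separate mice or cultures, so the p-values measure the spread between these libraries, which may be technical.

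LSK cells give rise to every blood lineage, and on cytokine stimulation they leave quiescence and enter the cell cycle while lineage genes switch on. Their genes read out several signals at once: immediate early genes follow growth factor and stress signaling within minutes, guanylate-binding proteins follow interferon, and the transcription factor NRF2 sets the level of enzymes that detoxify quinones, make glutathione and handle heme and iron. RBCs bring membrane contact, oxygen, hemoglobin and a large antioxidant capacity to a culture.

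The 4 libraries were of like depth. Relative depth, read from the steps between the FPKM values of rarely read genes, ranged from 0.886 to 1.113 with the first library without RBCs set to 1, and the absolute number of reads is unknown. Between 14829 and 15358 genes had a value above 0. Pearson's r across genes of log2(FPKM + 1) was 0.983 between the replicates without RBCs, 0.982 between those with RBCs, and from 0.973 to 0.978 between libraries of different condition.

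Coculture with RBCs raised far more genes past the threshold than it lowered. With RBCs 112 genes (0.96% of those tested) rose and 13 genes (0.111%) fell, where a call needed a Benjamini-Hochberg adjusted p under 0.05 in limma and a change of at least 2-fold on the log2(FPKM + 1) scale. These 2 shares are the background for the counts of called genes in the gene lists below. Without the fold limit, 308 genes (2.64%) lay higher and 156 (1.34%) lower at an adjusted p under 0.05, so the excess of rises was smaller among modest changes. The count of rises was 59 without the first library with RBCs, 69 without the second and 74 without the first library without RBCs. The median log2 fold change of all tested genes was -0.01. Most of the genes that rose had a low FPKM without RBCs. The mean without RBCs was under 1 for 29 of them, from 1 to 10 for 64 and from 10 to 100 for 18. Wfdc17 alone had one of 100 or more. The filter shapes this split: a gene under 1 FPKM in both libraries without RBCs was tested only if both with RBCs reached 1. Such a gene could not be seen to fall, which also holds for such members in the gene list counts below. Of 1758 tested genes with a mean FPKM under 3 over both conditions, 30 rose and 2 fell. Among the 1241 genes with a mean FPKM of at least 100 over both conditions, 4 rose and 1 fell, whereas at an adjusted p under 0.05 alone 34 lay higher and 46 lower. A fold change on this scale understates that of genes with low FPKM. With 2 libraries against 2 an exact permutation test of a single gene cannot give a two-sided p below 0.333, and the calls depend on a variance that limma moderates over all genes.

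**Figure D1:**
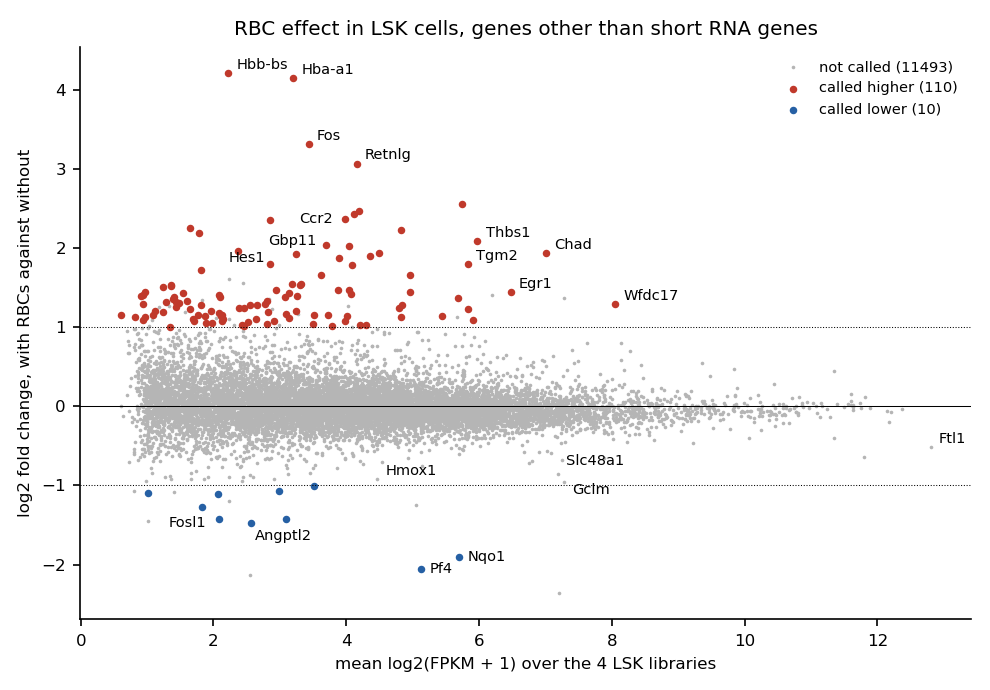
Each point is 1 of the tested genes other than short RNA genes, with its mean log2(FPKM + 1) over the 4 LSK libraries on the x axis and its log2 fold change with RBCs against without on the y axis, and dotted lines mark 2-fold. Red points (110 genes called higher) spread up to 4.22 on the y axis, whereas the 10 blue points (called lower) reach -2.06, and Gclm, Slc48a1, Hmox1 and the abundant Ftl1 sit between 0 and -1.

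The largest rises came from genes of quite different kinds. Fos, the immediate early transcription factor that pairs with Jun proteins in AP-1, stood at 3.27 and 1.74 FPKM without RBCs and at 30.9 and 35.3 with RBCs (log2 fold change 3.31, standard error 0.19, adjusted p = 6.1e-05). The groups did not overlap, and the lowest value with RBCs was several-fold above the highest without.

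The 20 largest rises other than short RNA genes included several secreted proteins. Thbs1, the matrix protein thrombospondin 1, which is also in the list of complement and coagulation genes, went from 22.9 and 38.0 FPKM to 119 and 139 (log2 fold change 2.09). Chad, the matrix protein chondroadherin, was the most abundant of the 20, at 68.4 and 60.9 FPKM without RBCs and 265 and 236 with RBCs (log2 fold change 1.94, standard error 0.12, adjusted p = 6.2e-05). The secreted serine proteases Htra1 and Htra3 rose side by side, with log2 fold changes of 2.26 and 1.94. For Htra3 the 4 values were 10.8 and 10.2 without RBCs and 42.1 and 43.7 with RBCs. Not counted here as secreted, AA467197 and Sprr2a3, a small proline-rich protein of epithelial barriers, rose by 2.56 and 2.48.

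Membrane proteins made up another part. P2rx7, an ion channel opened by extracellular ATP, was at 4.14 and 0.978 FPKM without RBCs and 16.9 and 13.8 with RBCs (log2 fold change 2.35, adjusted p = 0.016). Its 2 values without RBCs lay far apart, and the call was lost without the second of them and without either library with RBCs (adjusted p up to 0.1). Slco2b1, a transporter of organic anions, rose from 0.584 and 0.622 to 6.81 and 5.83 (log2 fold change 2.19). Adgre5, the adhesion receptor CD97, moved from 8.73 and 16.7 to 58.8 and 62.0 (log2 fold change 2.22), and 23.8% of its exon bases overlap Ddx39 on the opposite strand, whose log2 fold change was -0.16. The library kit does not mark strand, so reads of overlapping genes could not be told apart by strand. Bace2, an aspartyl protease of the membrane, rose by 1.97, and Cited4, a transcriptional co-regulator, by 1.93.

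**Figure D2:**
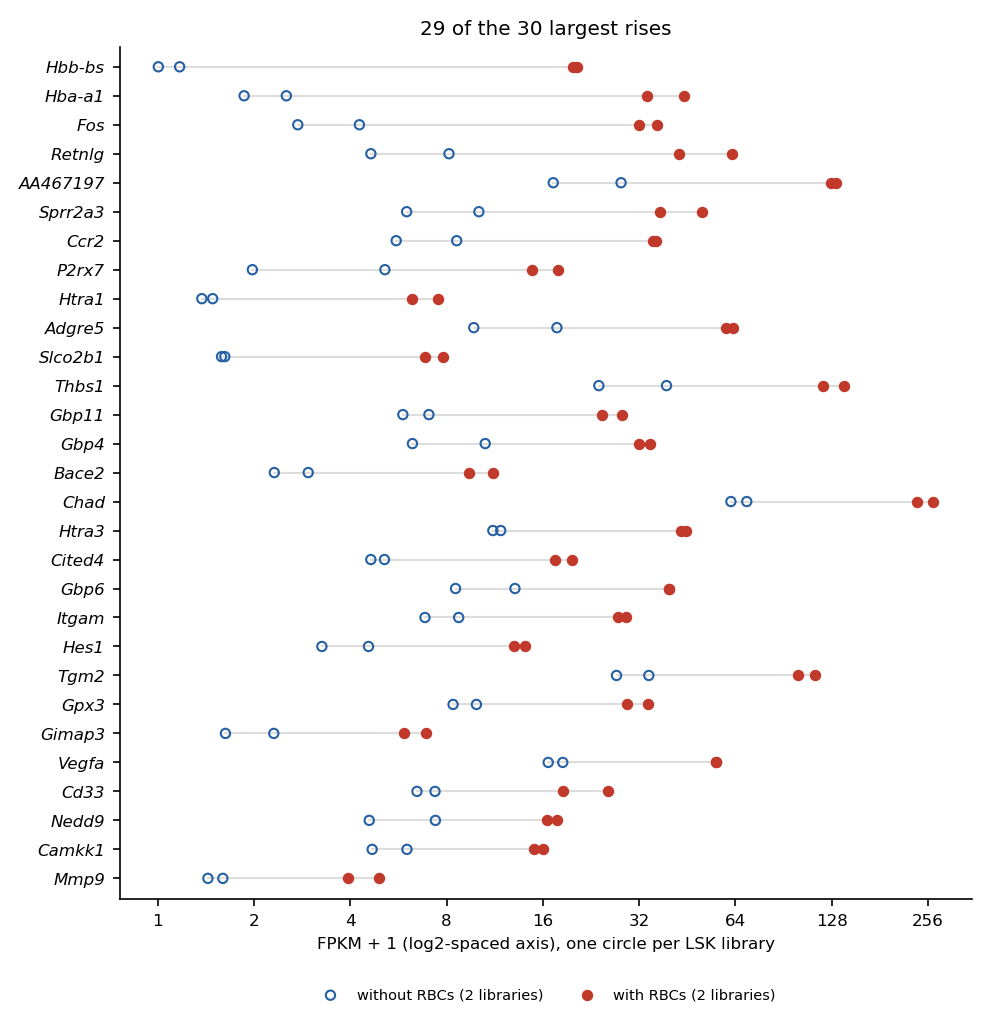
Shown are 29 of the 30 largest rises other than short RNA genes, 1 row per gene, with FPKM + 1 on a log-spaced x axis, open blue circles for the 2 LSK libraries without RBCs and filled red circles for the 2 with RBCs. In every row both red circles lie to the right of both blue ones, and the gap is widest for Hbb-bs, Hba-a1 and Fos.

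The guanylate-binding proteins, large GTPases that interferon induces and that attack the vacuoles of intracellular pathogens, split by their place in the genome. Of 17 interferon-inducible GTPases tested (19 listed), 6 rose and none fell, against 0.96% and 0.111% of all tested genes: Gbp4, Gbp6, Gbp8, Gbp9, Gbp10 and Gbp11. Gbp10, at 0.138 and 0.782 FPKM without RBCs, was tested only because both libraries with RBCs reached 1, so it could not be seen to fall. All 6 lie in 1 cluster on chromosome 5 (GRCm38, chr5:105014150-105346472, minus strand), where their log2 fold changes ran from 1.21 to 2.04 with a median of 1.72. The 4 tested guanylate-binding proteins of the cluster on chromosome 3 (Gbp2, Gbp3, Gbp5 and Gbp7) had log2 fold changes from 0.02 to 0.26. The 6 immunity-related GTPases on chromosome 11 (Irgm1, Irgm2, Igtp, Ifi47, Tgtp1 and Tgtp2) lay between -0.17 and 0.12.

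By library, Gbp6 was at 7.54 and 12.1 FPKM without RBCs and 38.6 and 38.8 with RBCs, and Gbp4 at 5.26 and 9.57 against 33.6 and 31.0. Gbp11 stood at 4.84 and 6.05 without RBCs and 23.5 and 27.4 with RBCs (standard error 0.14, adjusted p = 1.3e-04). The first library without RBCs was the lowest of the 4 for each of these genes, and the groups did not overlap. On chromosome 3, by contrast, Gbp2 was at 18.04 and 19.4 FPKM without RBCs and 18.6 and 19.7 with RBCs, and Gbp7 at 20.5 and 20.4 against 24.6 and 24.7 (log2 fold change 0.26, adjusted p = 0.15). The calls of Gbp4, Gbp6, Gbp9 and Gbp11 held whichever LSK library was left out. Gbp8 lost its call without the first library with RBCs (adjusted p = 0.082), and Gbp10 lost it without 3 of the 4 libraries (adjusted p up to 0.19). The chromosome 5 genes are close copies of each other between which counting could split reads, and 46.3% of the exon bases of Gbp10 and 29.0% of those of Gbp6 are shared with the annotated gene Gm43302 on the same strand, so their single values are less certain than the shared direction.

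A further called gene lay beside the cluster. Abcg3, a transporter gene, rose as well (FPKM 6.03 and 10.2 against 20.99 and 16.6, log2 fold change 1.15, adjusted p = 0.018). From Abcg3 to Gbp11 (chr5:104935057-105346472) 7 of the 7 tested genes rose, but the stretch was drawn from its first to its last called gene. The tested neighbours on either side did not pass, with log2 fold changes of 0.16 for Zfp951 and -0.12 for Lrrc8b. A called neighbour within 200000 bases would have been joined to the stretch, so uncalled flanks follow largely from how it was drawn. Other interferon-stimulated genes stayed out of this pattern: 0 of 35 passed the threshold, 1 lay higher at an adjusted p under 0.05 (Ifi44, log2 fold change 0.63), 30 lay above 0 (against 47.8% of all tested genes), and their median was 0.13. Of the 16 genes of MHC class I presentation 0 passed, with a median of 0.06.

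The interferon-stimulated response element was looked for in promoter sequences. The 6 GTPases that rose have no entry in the table used and were not searched, so the GTPases that rose and those that did not cannot be compared here. In that table (RefSeq, GRCm38.p6), the element was taken as GAAA, any 2 bases and GAAA, and was searched on both strands in the 250 bases before each start. It matched in 9 of 10 uncalled GTPases with an entry, against 3.2% of the 8927 tested genes with an entry and 4 of the 69 genes that rose and have one. One of the matching promoters is shown as an example of a member that did not change its level past the threshold, with the match in capitals (chr3:142530253-142530332, plus strand, ending before the start of the gene).
Gbp7: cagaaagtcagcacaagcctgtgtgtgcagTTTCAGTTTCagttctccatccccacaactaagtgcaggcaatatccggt

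Some called genes were neighbours elsewhere too. Placing the 117 called genes with a position (short RNA genes left out) on the genome, 25 had another called gene within 200000 bases, in 9 groups. No such count was made for other tested genes, so whether this number is high was not tested. Within every group all called genes moved the same way, which was likely with 112 rises and 13 falls. The neighbours Tmie and Als2cl share 244 exon bases on opposite strands. On chromosome 9 the chemokine receptor genes Ccr1 and Ccr2, which guide monocytes and other leukocytes to inflamed tissue, rose by 1.15 and 2.37. Ccr2 was at 7.61 and 4.57 FPKM without RBCs and at 34.4 and 35.01 with RBCs (standard error 0.20, adjusted p = 3.5e-04), and Ccr1, at 1.57 and 1.02 against 4.42 and 3.71, lost its call whichever LSK library was left out (adjusted p up to 0.13). On chromosome 6, 3 of the 8 tested genes of the GIMAP family, GTPases of lymphocyte survival, rose (Gimap3, Gimap4 and Gimap7, within chr6:48684549-48770851, log2 fold changes 1.72, 1.02 and 1.28), Gimap5 and Gimap6 lay higher by 0.51 and 0.57 at adjusted p-values of 0.015 and 0.0021 with less than 2-fold, and Gimap1, Gimap8 and Gimap9 did not pass, at 0.06, 0.63 and 0.11. Fos and Jdp2 are neighbours on chromosome 12, and the next tested gene after them, Batf, had a log2 fold change of 0.04. The only group of falls held Clec4d and Clec4e on chromosome 6, receptors that bind microbial glycolipids (log2 fold changes -1.07 and -1.01). Clec4e had values of 15.2 and 15.2 without RBCs and 8.52 and 5.82 with RBCs, and its call was lost without 3 of the 4 libraries (adjusted p up to 0.18).

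Immediate early genes rose in part, and within AP-1 most members lay higher while Fosl1 fell. Of 8 AP-1 genes tested, 3 rose (Fos, Jdp2 and Jun), 1 fell (Fosl1) and 4 did not pass. Of all tested genes 0.96% rose and 0.111% fell. Among the 8, 7 lay above 0 (against 47.8% of all tested genes), with a median of 0.47. Jun was at 2.30 and 2.48 FPKM without RBCs and 6.0004 and 8.19 with RBCs (log2 fold change 1.24), and Jdp2, a repressor in the same family, at 28.7 and 45.7 against 80.8 and 92.9 (log2 fold change 1.23). Junb lay higher by 0.76 with an adjusted p of 0.0045 and less than 2-fold. Fosl1, whose protein is the Fos relative FRA1, fell from 6.42 and 5.49 to 1.55 and 1.63 (log2 fold change -1.42, standard error 0.15, adjusted p = 0.001). Its exons overlap those of Ccdc85b on the opposite strand over 57.2% of their bases, and Ccdc85b was at 10.1 and 9.05 FPKM without RBCs and 6.54 and 5.99 with RBCs. The calls of Fos and Fosl1 held without any single library, whereas Jun and Jdp2 each lost theirs without at least 2 of the 4 libraries (adjusted p up to 0.09 for both).

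Of 18 other immediate early genes tested, 3 rose (Zfp36, Egr1 and Klf2), against 0.96% of all tested genes. None fell, 15 lay above 0 (against 47.8% of all tested genes), and the median was 0.33. Zfp36, which codes for the RNA-destabilizing protein tristetraprolin, stood at 36.8 and 26.1 FPKM without RBCs and 74.2 and 90.2 with RBCs (log2 fold change 1.37, adjusted p = 0.0014). Klf2, a factor that keeps lymphocytes and endothelium quiescent, was at 0.759 and 0.724 against 3.11 and 3.23 (log2 fold change 1.26). At these levels Klf2 passed the filter only through the libraries with RBCs and could not be seen to fall. Egr1 rose by 1.45, from 77.9 and 35.8 to 145 and 147, but its 2 values without RBCs differed widely, and its call was lost without 3 of the 4 libraries (adjusted p up to 0.12). Ier2 lay higher by 0.59 (adjusted p = 0.011) and Myc lower by 0.34 on the log2 scale (log2 fold change -0.34, adjusted p = 0.026, FPKM 269 and 281 against 214 and 219). Most immediate early genes thus lay higher, while the size of the change differed among them and Fosl1 and Myc went the other way.

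A promoter of a gene that rose and one that holds an AP-1 site can be seen in P2rx7 (chr5:122643677-122643756, GRCm38.p6, plus strand), where the capitals mark TGANTCA near the far end of the window. That motif, searched on both strands, occurs before 4 of the 69 genes that rose and have an entry (5.8%) and before 5.2% of all tested genes with one, so its share was close to the background. A CArG box, the site of serum response factor, was found before 1 of 5 immediate early genes that rose (Zfp36) and before 1.4% of all.
P2rx7: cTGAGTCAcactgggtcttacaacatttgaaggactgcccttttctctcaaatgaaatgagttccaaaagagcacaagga

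Among 280 transcription factors recognized by family name, 10 rose (3.57%, against 0.96% of all tested genes) and 1 fell. In the Notch list, Hes1, a repressor that keeps stem cells undifferentiated, was the only 1 of 24 genes that rose (FPKM 3.56 and 2.26 against 13.04 and 11.97, log2 fold change 1.81, adjusted p = 0.0013). The protease gene Adam17, which cuts Notch receptors and many other surface proteins, lay higher by 0.76 (adjusted p = 0.013). Nrarp, another Notch target, had a log2 fold change of -0.37 and did not pass (adjusted p = 0.27). Of 20 circadian clock genes, Arntl (log2 fold change 1.24, FPKM 15.7 and 18.5 against 44.2 and 39.3) and Bhlhe40 (log2 fold change 1.10) rose and 18 did not pass, among them Nr1d1 at -0.43. Bhlhe40 stayed at an adjusted p under 0.05 but dropped below 2-fold without the first library of either condition (log2 fold change 0.98). Lef1 and Irf4, regulators of lymphoid cells, rose by 1.41 and 1.32 among 24 lineage factors, from 1.66 and 1.52 to 6.205 and 5.56 FPKM and from 0.731 and 0.382 to 3.24 and 2.53. Irf4 lost its call without 2 of the 4 libraries. It passed the filter only through the libraries with RBCs and could not be seen to fall.

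Some integrins and other adhesion genes rose with RBCs. Of 14 integrins tested 4 rose (against 0.96% of all tested genes), none fell, and the median was 0.41. Itgam, the alpha chain of Mac-1, was at 5.85 and 7.73 FPKM without RBCs and 26.5 and 28.1 with RBCs (log2 fold change 1.87, standard error 0.14, adjusted p = 2.4e-04), although 68.7% of its exon bases are shared with the annotated gene Gm49368 on the same strand. Itgae, the chain that binds E-cadherin on epithelium, rose by 1.38 from 3.76 and 4.79 to 13.1 and 12.3. Itgal, of LFA-1, rose by 1.19, and Itgb2, the beta chain that both Mac-1 and LFA-1 need, by 1.07. The values of Itgb2 with RBCs, 9.17 and 5.74, differed most between replicates. Itgb2 and Itgal each lost their call without 3 of the 4 libraries (adjusted p up to 0.16 and 0.063). Itgb7 and Itgb5 lay higher by 0.81 and 0.95 (adjusted p = 0.035 and 0.036), and Itga4, which homes progenitors to the marrow, had a log2 fold change of 0.37 that did not pass (adjusted p = 0.13).

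Of 32 other adhesion and homing genes, 5 rose (Chad, Ccr2, Adgre5, Cd36 and Ccr1), against 0.96% of all tested genes. None fell, 10 lay below 0, and the median was 0.19. Cd36, a scavenger receptor for oxidized lipids and thrombospondin, was low without RBCs, at 0.310 and 0.493 FPKM, and stood at 2.67 and 3.33 with RBCs (log2 fold change 1.51, adjusted p = 0.0017). Cd36 was also the only riser among 17 genes of sterol efflux and lipid handling. In both lists it passed the filter only through the libraries with RBCs and could not be seen to fall. Tgm2, which cross-links matrix proteins and is induced by retinoids, went from 26.2 and 33.3 to 99.7 and 112 (log2 fold change 1.80), the only riser among 8 retinoid genes. In the TGF-beta list 1 of 18 genes rose, Tgfbi (log2 fold change 1.05), and its call was lost without 3 of the 4 libraries (adjusted p up to 0.082). The nuclear co-repressor Skil lay higher by 0.69 (adjusted p = 0.014). Of the ligands, which were not on this list, Tgfb2 rose from 0 and 0.0454 FPKM to 1.103 and 1.45 (log2 fold change 1.15). Tgfb3 rose from 0.671 and 0.603 to 2.19 and 4.74 (log2 fold change 1.39), whereas Tgfb1 had a log2 fold change of -0.21 that did not pass.

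Cytokine genes moved both ways. Of 25 cytokines and chemokines, 2 rose (Vegfa and Wfdc17) and 2 fell (Pf4 and Angptl2), with a median of 0.03. Vegfa, the endothelial growth factor, was at 15.6 and 17.5 FPKM without RBCs and 54.5 and 54.6 with RBCs (log2 fold change 1.66, standard error 0.13, adjusted p = 2.4e-04). Angptl2, a secreted angiopoietin-like protein, fell from 9.03 and 8.64 to 2.28 and 2.80 (log2 fold change -1.48, adjusted p = 5.7e-04). Pf4, the platelet chemokine that restrains hematopoietic stem cells, stood at 130 and 37.8 without RBCs and at 13.5 and 19.1 with RBCs (log2 fold change -2.06, standard error 0.43, adjusted p = 0.03). The groups did not overlap for Pf4, but its first value without RBCs was over 3 times the second, and the call was lost without either library with RBCs (adjusted p up to 0.17). Its neighbour in function Ppbp lay at -0.89 and did not pass. Of 17 tested megakaryocyte and platelet markers, Pf4 among them, 12 lay above 0 and 5 below, with a median of 0.07. The summed level of the 20 listed genes, which includes Pf4, was 534.5 and 438.0 FPKM without RBCs and 442.4 and 462.4 with RBCs.

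Signaling feedback genes gave single calls. Socs3, which shuts off signaling through JAK kinases, rose from 7.93 and 9.90 to 24.1 and 28.9 (log2 fold change 1.48, adjusted p = 4.6e-04), the only 1 of 16 STAT feedback genes to do so. The kinase genes Pim1 and Pim2, both cytokine targets, differed in sign, at 0.71 and -0.69 with adjusted p-values of 0.0041 and 8.1e-04 and less than 2-fold. Of 18 NF-kappaB targets none passed the threshold, and Bcl3, Ikbke, Traf1 and Nfkbia lay higher by 0.33 to 0.85 at adjusted p-values from 0.021 to 0.047. In the unfolded protein response 1 of 30 genes rose, the sensor Ern1 (18.5 and 17.7 against 37.1 and 45.2 FPKM, log2 fold change 1.13), which fell short of 2-fold and lost its call without the second library with RBCs (log2 fold change 0.996), and Ppp1r15a and Dnajb9 lay higher by 0.78 and 0.51 at adjusted p-values of 0.0034 and 0.016. Among 25 p53 targets and cell death genes Pmaip1, the death-promoting protein NOXA, rose by 1.01, a call lost whichever library was left out (adjusted p up to 0.21). Camkk1, a calcium-activated kinase upstream of AMPK, rose by 1.55 among 14 calcium and AMPK kinases. Csf1r, the receptor for M-CSF, rose by 1.44 among 32 cytokine receptors, from 14.1 and 22.8 to 47.2 and 54.3, and lost its call without the second library with RBCs (adjusted p = 0.063).

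Antigen presentation by MHC class II leaned upward. H2-Ob, part of a regulator of peptide loading, rose from 25.6 and 31.2 FPKM to 60.6 and 66.6 (log2 fold change 1.14, standard error 0.12, adjusted p = 8.1e-04), as the only 1 of 10 genes. H2-Ab1 and H2-Aa lay higher by 0.38 and 0.71 at adjusted p-values of 0.016 and 0.031, H2-Eb1 and Cd74 by 0.78 and 0.52 at 0.056 and 0.059, and the median of the 10 was 0.40. Ciita, the master switch of these genes, was near 1 FPKM in all 4 libraries with a log2 fold change of -0.02.

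Several genes of the NRF2 response lay lower with RBCs, and Nqo1 and Cbr3 of the NRF2 list were among the 10 falls outside short RNA genes. Nqo1, which reduces quinones, was at 121 and 81.7 FPKM without RBCs and 22.4 and 29.8 with RBCs (log2 fold change -1.90, standard error 0.20, adjusted p = 8.1e-04). Cbr3, a carbonyl reductase, fell from 5.502 and 3.72 to 1.08 and 1.53 (log2 fold change -1.27, adjusted p = 0.0091), and Pir, the iron-binding protein pirin, which was not on the list, from 3.999 and 6.59 to 2.09 and 1.63 (log2 fold change -1.11, adjusted p = 0.028). In all 3 the groups did not overlap. The unnamed transcripts 2310075C17Rik and 1700001O22Rik fell by 1.43 and 1.09 on the log2 scale, and both lost their call without the first library with RBCs, the latter also without either library without RBCs (adjusted p up to 0.056 and 0.089). The call of Nqo1 held whichever library was left out, that of Cbr3 was lost without the first library of either condition (adjusted p up to 0.077), and that of Pir without 3 of the 4 libraries (adjusted p up to 0.18).

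In the NRF2 list as a whole, 2 of 33 genes fell, 1 rose and 26 had a log2 fold change below 0, with a median of -0.18 against -0.01 over all genes. At an adjusted p under 0.05 alone 10 lay lower (2 of them called), against 1.34% of all tested genes. Gclm, the regulatory subunit of the enzyme that makes the first step of glutathione synthesis, was at 214 and 215 FPKM without RBCs and 114 and 106 with RBCs (log2 fold change -0.95, standard error 0.09, adjusted p = 4.7e-04), just short of 2-fold. Gclc, its catalytic partner, lay at -0.45 (adjusted p = 0.044), Gstm1, a glutathione transferase, at -0.68 (198 and 186 against 122.7 and 115 FPKM), and Cat, catalase, at -0.58 (122 and 125 against 83.1 and 81.9). Taldo1 and Tkt of the pentose phosphate pathway lay at -0.42 and -0.29, Prdx6, a peroxiredoxin, at -0.32, and Txnrd1, thioredoxin reductase, at -0.30. The replicates of these abundant genes were close to each other, so that changes well below 2-fold exceeded their spread. The list had exceptions: Osgin1, a stress-induced growth inhibitor, rose by 1.03 (11.5 and 12.3 against 27.1 and 23.7 FPKM) and lost its call whichever library was left out, and Gpx1, a glutathione peroxidase, lay higher by 0.45 (2216 and 2253 against 3075 and 3015 FPKM, adjusted p = 0.017). Outside the list, the secreted glutathione peroxidase Gpx3 rose by 1.79 on the log2 scale (limma adjusted p = 4.8e-04).

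In the heme and iron list none of 29 genes passed the threshold (against 0.111% of all genes called lower) and 5 lay lower at an adjusted p under 0.05. Slc48a1, which moves heme out of lysosomes, stood at 196 and 194 FPKM without RBCs and 109 and 106 with RBCs (log2 fold change -0.85, standard error 0.07, adjusted p = 2.5e-04). Hmox1, heme oxygenase 1, which breaks heme down, was at 28.6 and 30.3 against 13.6 and 16.8 (log2 fold change -0.92, adjusted p = 0.018), and Blvrb, which acts after it, at -0.41 (adjusted p = 0.046). The ferritin chains Ftl1 and Fth1, the iron store, lay at -0.52 and -0.40 (8360 and 8713 against 5961 and 5979 FPKM for Ftl1, adjusted p = 0.0082 and 0.017). Tfrc, the transferrin receptor, had a log2 fold change of -0.37 that did not pass (adjusted p = 0.16). Over the whole list 18 genes lay below 0 and 11 above, with a median of -0.06 that became 0.01 without the second library with RBCs. Ftl1 is the gene with the highest FPKM in each of the 4 libraries, so quantile normalization sets its difference to 0.

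**Figure D3:**
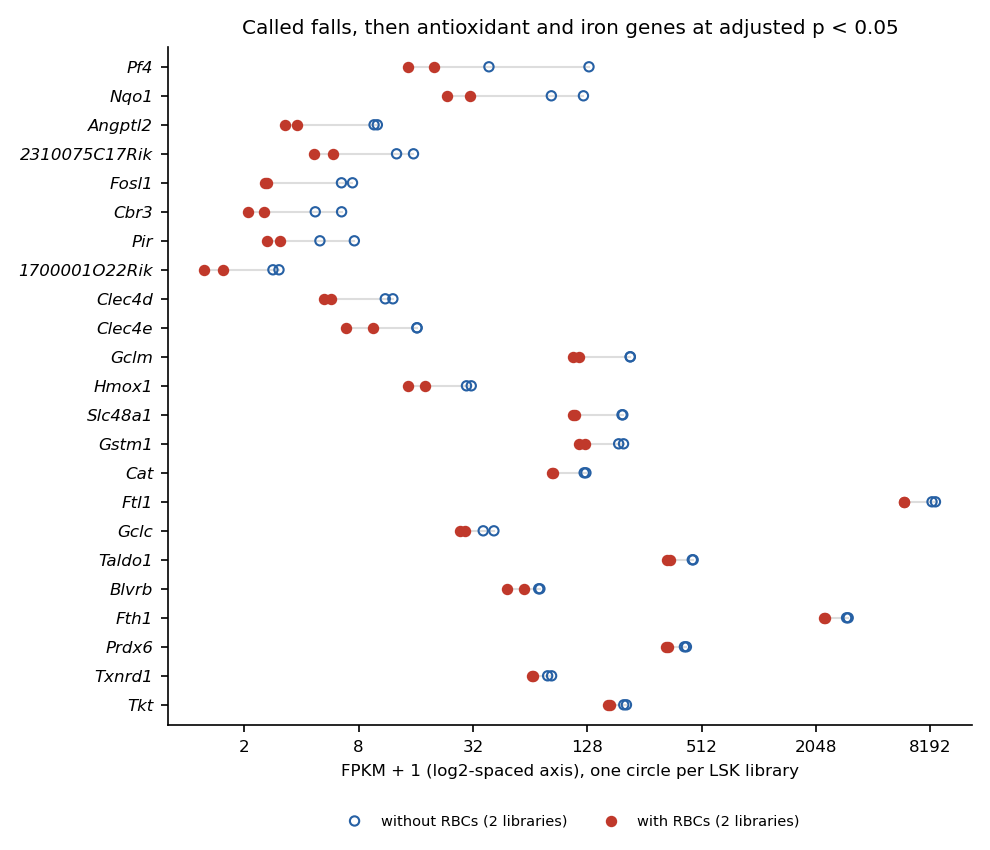
The 10 called falls other than short RNA genes (upper rows), followed by 13 antioxidant, heme and iron genes at an adjusted p under 0.05 with less than 2-fold, with FPKM + 1 on a log-spaced x axis, open blue circles for the 2 LSK libraries without RBCs and filled red circles for the 2 with RBCs. Red lies to the left of blue in every row, with a wide spread between the blue circles for Pf4 and nearly coincident circles for Ftl1, Fth1 and Cat.

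The core of the antioxidant response element, TGACNNNGC, was searched on both strands in the same promoter windows. It was found before 2 of the 9 genes that fell and have an entry and before 2 of the 8 NRF2 list genes that lay lower and have an entry, against 14.3% of all tested genes with one. Matches before a gene that fell (Pir, chrX:164269187-164269266, plus strand) and before one just short of 2-fold (Gclm, chr3:122245393-122245472, plus strand, both GRCm38.p6) are shown in capitals. The match before Pir overlaps the AP-1 motif TGANTCA.
Pir: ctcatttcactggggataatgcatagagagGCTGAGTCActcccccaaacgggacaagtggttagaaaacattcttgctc
Gclm: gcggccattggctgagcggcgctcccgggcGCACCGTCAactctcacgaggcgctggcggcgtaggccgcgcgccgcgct

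Genes of DNA replication lay slightly but broadly lower. None of 40 G1/S and replication genes passed the threshold, 39 had a log2 fold change below 0 (against 52.2% of all tested genes), 32 had both libraries with RBCs below both without (against 26.7%), 8 lay lower at an adjusted p under 0.05, and the median was -0.26. Mcm6, Mcm7, Mcm5 and Mcm2 of the replicative helicase lay between -0.46 and -0.33, Mcm6 with 283 and 290 FPKM against 233 and 220 (adjusted p = 0.017). Uhrf1, which keeps DNA methylation through replication, lay at -0.55 (adjusted p = 0.028), and Tk1, thymidine kinase, at -0.50 (adjusted p = 0.047). The list median stayed between -0.28 and -0.21 with each library left out. Genes of mitosis and G2/M lay closer to 0, with 28 of 40 below 0, a median of -0.10, and Spc24 of the kinetochore alone at an adjusted p under 0.05 (log2 fold change -0.41). Cdk6, a kinase of G1 progression, lay at -0.34 (adjusted p = 0.047) among 13 cyclins D, their kinases and CDK inhibitors, of which 0 passed.

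Energy metabolism genes lay nearer to 0 than the replication genes. In glycolysis and hypoxia 0 of 33 genes passed the threshold, the median was -0.15, and 6 lay lower at an adjusted p under 0.05: Pkm (-0.47), Tpi1 (-0.41), Pgk1 (-0.32), Egln3 (-0.73), Eno1 (-0.26) and Aldoa (-0.29). Pkm, pyruvate kinase, was at 667 and 732 FPKM without RBCs and 499 and 511 with RBCs. Egln3, a hypoxia-induced oxygen sensor, was at 24.1 and 22.9 against 14.0 and 13.4, and Vegfa, a hypoxia target counted with the cytokines above, rose. Subunits of oxidative phosphorylation lay below 0 in 66 of 80 cases with a median of -0.08, and none reached an adjusted p under 0.05. Ribosomal proteins had a median of -0.02, which turned to 0.02 under quantile normalization and to 0.01 without the second library with RBCs, with 0 of 81 called. Of the 35 function lists, 13 had no called gene, among them cholesterol and fatty acid synthesis (0 of 33), heat shock (0 of 12), lysosome and autophagy (0 of 40) and epigenetic regulators (0 of 25, with Dnmt3b at -0.47 and an adjusted p under 0.05).

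**Figure D4:**
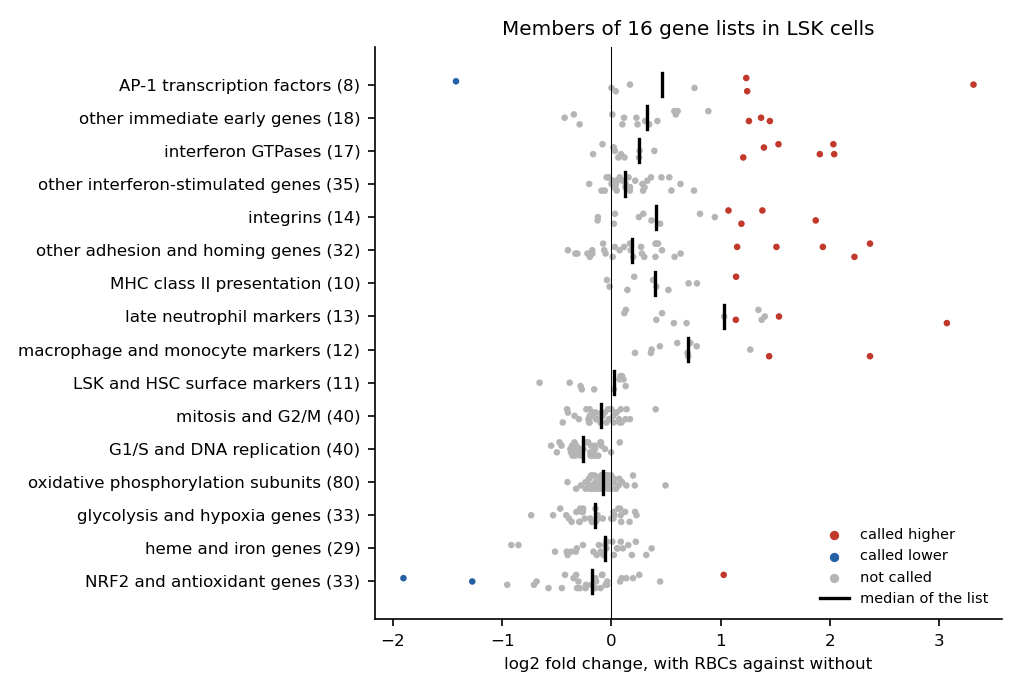
Log2 fold change with RBCs against without (x axis) of each tested member of 16 gene lists, with the number tested in brackets, red for called higher, blue for called lower, gray for not called and a black bar at the median of the list. Called rises are seen among the 6 chromosome 5 interferon GTPases, the AP-1 genes and the integrins, while the G1/S list sits just left of 0 with no called gene.

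Surface markers that define the sorted cells were present in every library. Kit (c-Kit) was at 135 and 137 FPKM without RBCs and 110 and 113 with RBCs (log2 fold change -0.28, adjusted p = 0.052), and Ly6a (Sca-1) at 381 and 226 against 204 and 170 (log2 fold change -0.66, adjusted p = 0.14). None of the 11 tested surface markers of LSK cells and HSCs passed the threshold. Without the second library without RBCs, the Ly6a log2 fold change was -1.03 with an adjusted p of 0.0245, past the threshold. Of 38 HSC identity genes, 2 rose, Egr1 and the sulfotransferase gene Sult1a1, the latter from 4.996 and 4.37 to 9.94 and 13.9 FPKM (log2 fold change 1.17), a call lost without the second library of either condition (adjusted p up to 0.076). Hoxa9, a self-renewal factor, lay at 0.51, and Lmo2, part of the stem cell transcription complex, at -0.36 (adjusted p = 0.027 and 0.011). The median of the identity genes was close to 0.

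Every tested late neutrophil, macrophage and monocyte marker lay above 0, and a few passed the threshold. In bulk libraries more cells of a type and more RNA per cell cannot be told apart. The added blood was filtered to remove leukocytes, and any left over would enter the libraries with RBCs alone. Whether any were left was not tested. Of 21 late neutrophil markers listed, 13 were tested and 3 rose (against 0.96% of all tested genes). All 13 lay above 0, with a median of 1.03. For 9 of them both libraries with RBCs lay above both without (against 24.4% of all tested genes). Mmp9, under 1 FPKM in both libraries without RBCs, was tested only because both with RBCs reached 1. It could therefore only lie above 0 in these counts. Retnlg, a resistin-like protein of granulocytes, went from 7.14 and 3.64 FPKM to 61.5 and 41.7 (log2 fold change 3.07, standard error 0.47, adjusted p = 0.0076), and its call was lost without the second library without RBCs or the first with RBCs (adjusted p up to 0.072). The granule proteases Mmp9 (0.436 and 0.599 against 3.91 and 2.92) and Mmp8 (1.12 and 1.86 against 4.83 and 4.05) rose by 1.53 and 1.14, and Mmp8 lost its call whichever library was left out (adjusted p up to 0.19). S100a8 and S100a9, the most abundant proteins of neutrophils, had log2 fold changes of 1.38 and 1.40 but wide replicates (79.1 and 114 against 303 and 204 FPKM for S100a8) and adjusted p-values of 0.31 and 0.34. Summed over the 20 neutrophil markers present in the files, the level was 213.1 and 322.1 FPKM without RBCs and 686.6 and 473.8 with RBCs. Fpr2 and Stfa2l1 were at or near 0 in all 4 libraries.

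Among 26 macrophage and monocyte markers listed, 12 were tested and 2 rose (Ccr2 and Csf1r). All 12 had both libraries with RBCs above both without (against 24.4% of all tested genes), with a median of 0.70. The summed level of the list was 404.9 and 307.4 FPKM without RBCs and 552.1 and 684.4 with RBCs, mostly from Lyz2 (296 and 196 against 341 and 454). The tissue macrophage markers C1qa, Marco, Msr1 and Timd4 were at or near 0 in every library, and Adgre1 (F4/80) was at 0.025 and 0.068 against 0.566 and 0.267. Itgam, Itgb2, Cd36, Ccr1 and Ccr2, which mature myeloid cells also carry, were called higher too, and Ccr2 is itself part of the macrophage sum. The macrophage and neutrophil sums ordered the 2 libraries of each condition in opposite ways. No gene could follow both sums, so nothing is read from the order of replicates. Mast cell and basophil markers summed to 105.4 and 126.0 FPKM without RBCs and 219.3 and 166.0 with RBCs over 16 genes, 8 of 9 tested lay above 0 with a median of 0.44, and none passed the threshold. Tpsb2, Tpsab1, Cma1, Mcpt4 and Mrgprx2 of that list were at or near 0 in every library. Prss34, a protease of basophils, was at 1.44 and 3.13 FPKM without RBCs and 52.4 and 0.646 with RBCs, so the first library with RBCs stood apart. The part of such cells in the rises was not tested.

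Lymphocyte markers differed by lineage, and none passed the threshold. The summed level of 13 B cell markers was 49.68 and 56.66 FPKM without RBCs and 66.08 and 66.6 with RBCs, mostly from Cd79b (log2 fold change 0.35, adjusted p = 0.076), and 4 of the 5 tested lay above 0. Of 12 lymphoid priming genes tested 9 lay above 0, with a median of 0.35. Ms4a1, Pax5 and Ebf1 of B cells and Cd3e and Cd8a of T cells were at or near 0 in all 4 libraries, and the summed level of 12 T cell markers was 39.15 and 40.32 FPKM without RBCs and 31.06 and 30.03 with RBCs. The sums of 11 NK cell markers were 192.0 and 189.9 against 138.9 and 145.0, where Nkg7 made up most of the sum and lay at -0.44 with an adjusted p under 0.05. Primary granule genes, which progenitors themselves express, had 0 of 11 called and a median of 0.06, and Prtn3, a granule protease, lay higher by 0.80 at an adjusted p under 0.05.

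A pair of hemoglobin genes had the largest rises of all genes longer than short RNAs, while the summed beta chains overlapped between the groups. Hba-a1, an alpha chain, was at 0.864 and 1.53 FPKM without RBCs and 32.9 and 43.1 with RBCs (log2 fold change 4.16, standard error 0.32, adjusted p = 2.5e-04). Hbb-bs, a beta chain, was at 0.00522 and 0.172 against 18.9 and 19.4 (log2 fold change 4.22, standard error 0.998, adjusted p = 0.049), and its call was lost whichever LSK library was left out (adjusted p up to 0.21). The HSC libraries with RBCs, which share in the estimate of its spread, held 0.00753 and 19.1. The beta chains are close copies between which reads can be split, and Hbb-b2 was at 109 and 173 FPKM without RBCs and 128 and 54.1 with RBCs. Hbb-b1 was at 0.907 and 2.12 against 0.0438 and 0.0145. Summed over Hbb-b1, Hbb-b2 and Hbb-bs, FPKM came to 109.7 and 175.4 in culture alone, against 146.8 and 73.53 in coculture, so the groups overlapped. Other products of red cells were scarce: Slc4a1, Ank1, Ermap and Kel were at or near 0 in every library, and Alas2 was at 0.265 and 0.278 against 0.598 and 1.55. Over 27 red cell and erythroid markers the FPKM summed to 635.8 and 672.4 without RBCs, against 735.5 and 675.3 in the cocultures. RNA carried over from the added RBCs cannot be told apart from expression in the cultured cells by these values.

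The effect was compared with that in HSCs by testing the difference between the effects. Of the 112 genes that rose in LSK cells, 98 had a log2 fold change above 0 in HSCs and 39 were also called higher there, where 0.626% of tested genes were, and 1 (Wfdc17) was called lower. The median log2 fold change of the 112 genes was 1.32 in LSK cells, which chose them, and 0.78 in HSCs. Of the 13 falls, 11 had the same sign in HSCs and 1, Clec4d, was also called lower there. The difference between the effects passed the threshold for 13 of all 11662 genes (0.111%), of which 4 were among the rises (Fos, Sdc1, Wfdc17 and Mir24-2) and 1 among the falls (Mir8113). For most of the other genes that passed in 1 population alone a difference is therefore not shown.

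Fos rose more in LSK cells than in HSCs, where it went from 5.10 and 4.34 to 15.7 and 15.2 FPKM (log2 fold change 1.53, difference 1.79, adjusted p = 0.0496). This was the highest adjusted p of the 13 differences, at the edge of the threshold, and the number of differences past it fell to 2 without the filter and 5 without the trend. Sdc1, the heparan sulfate carrier syndecan 1, rose in LSK cells from 7.51 and 8.19 to 21.8 and 25.2 (log2 fold change 1.47) and was at 4.13 and 3.25 against 3.39 and 2.88 in HSCs (log2 fold change -0.18, difference 1.64, adjusted p = 0.02). Wfdc17, a secreted antiprotease-like protein, moved in opposite directions. In LSK cells its values were 204 and 139 without and 391 and 439 with RBCs, but in HSCs they dropped, 77.5 and 98.7 giving way to 30.1 and 31.6 (difference 2.77, adjusted p = 0.0021). Nqo1, the largest fall among the enzymes, had a log2 fold change of -0.62 in HSCs.

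**Figure D5:**
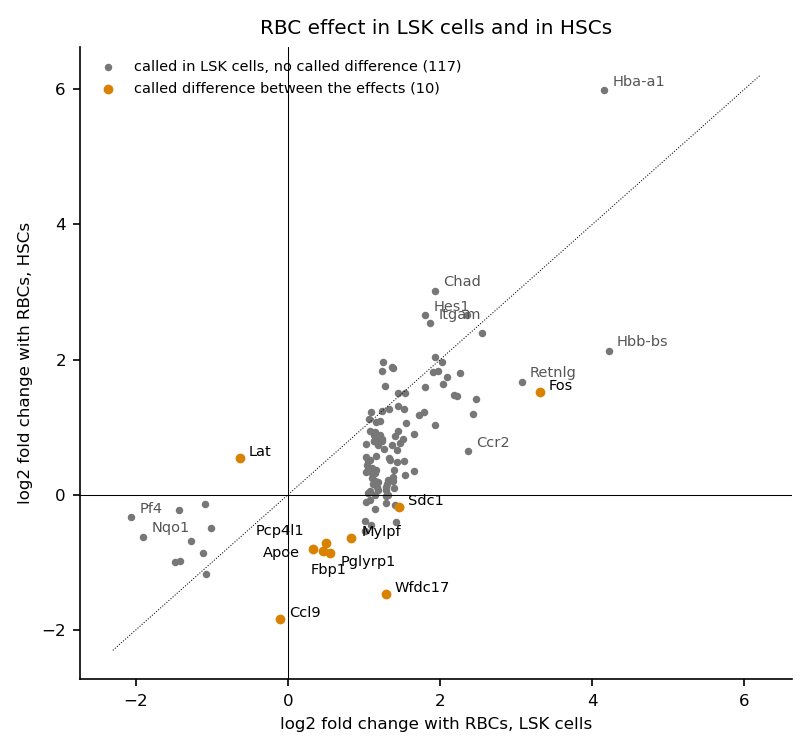
Log2 fold change with RBCs in LSK cells (x axis) and in HSCs (y axis) for 117 genes called in LSK cells without a called difference (gray) and 10 genes with a called difference between the effects (orange), short RNA genes left out, with the diagonal dotted. Of the 107 gray points right of 0, 93 lie below the diagonal, where the choice by the LSK value tends to place them, and Wfdc17 is the point farthest below it among the orange ones.

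Short RNA genes made up 5 of the 125 calls, and those whose reads could be inferred appear to rest on few. Reads were inferred as the smallest whole multiples of a step in a gene's FPKM that fit, so the true numbers may be larger. Read this way, Mir24-2 had 0 reads in both libraries without RBCs and 1 read in each with RBCs. Mir8113 and Gm24148 had 3 and 1 reads without RBCs and 0 with RBCs. For Mir719 no reads could be inferred. The FPKM of Mir24-2 was still 1458 and 1375 with RBCs, since a short gene is given a high FPKM by few reads. Mir8113 lies within an exon of Cd27. Snora65, with 10, 14, 4 and 6 inferred reads, lies within Rpl12. No level of a microRNA or small nucleolar RNA can be taken from these values.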

How the data were processed

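RNA of sorted CD45-positive cells was amplified as full-length cDNA (SMART-Seq HT), made into libraries with Nextera XT and sequenced. The authors' processing notes name TopHat2 2.1.1, Bowtie2 2.2.8, SAMtools 0.1.18, Cuffdiff 2.2.1 and mm10, and the deposited values are FPKM per gene symbol for each sample. The annotation and the strand setting are not given in the sources used here. FPKM is normalized to library size and transcript length, so a share lost by abundant genes raises others.

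Groups came from the sample labels. FPKM was transformed to log2(FPKM + 1), and genes reaching 1 FPKM in 2 or more of the LSK libraries were kept. limma 3.58.1 (R 4.3.3, trend on mean level) fitted 4 group means over all 8 libraries, with 4 residual degrees of freedom, and Benjamini-Hochberg adjustment ran over all 11662 genes. A call needed an adjusted p under 0.05 and at least 2-fold. The difference between the effects in LSK cells and HSCs was a contrast in the same fit. The fit was tested on simulated data. Depth was compared between libraries from rarely read genes, of which 73.2% of 5365 gave whole multiples (tolerance 0.02).

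The members and lists were chosen with earlier results of these data known, so a count over a list is a description. Named genes were the 20 largest calls in each direction whose groups did not overlap (short RNA genes counted apart, with up to 3 examples), every called list member, up to 2 uncalled members a list with the lowest adjusted p, and the LSK surface markers. Other uncalled list members, Abcg3, the neighbours in the genome and their flanking genes, Tgfb2, Tgfb3, the genes that differed from HSCs, those of the closing observations and those whose promoters are printed were chosen after their values were seen. Of 125 called genes, 122 had a position in GENCODE M21 (GRCm38) and 78 a promoter entry in RefSeq (GRCm38.p6), and 46 overlapped another gene by at least 50 exon bases. Some genes that the rule names are not reported here.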

Additional observations from a re-analysis of the deposited data

Results flagged for a closer look

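The effect of RBCs differed between LSK cells and HSCs, by limma's test of the difference, for 13 genes, given here as the effect in LSK cells minus that in HSCs on the log2 scale. Fos (1.79), Sdc1 (1.64) and Wfdc17 (2.77) are described with the comparison above. Another 7 genes other than short RNA genes had changes of less than 2-fold in LSK cells.

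Apoe, the lipid carrier, was at 88.9 and 87.0 FPKM without and 102 and 120 with RBCs in LSK cells, and at 217 and 217 against 135 and 115 in HSCs (difference 1.12). Pcp4l1, a small calmodulin-binding relative of PCP4, was at 39.6 and 39.2 against 56.5 and 55.8 in LSK cells and at 45.2 and 47.3 against 26.9 and 28.7 in HSCs (difference 1.22, adjusted p = 0.0021). Lat, an adaptor of T cell receptor signaling also used in mast cells and platelets, went the other way, with 20.9 and 19.6 against 13.3 and 12.3 in LSK cells and 14.6 and 15.4 against 21.3 and 23.6 in HSCs (difference -1.17). In each of these 3 genes the effects had opposite signs in the 2 populations, with no overlap between the libraries of either.

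Ccl9, a chemokine, stayed between 65.5 and 78.5 FPKM in the 4 LSK libraries and was at 14.8 and 15.98 against 2.69 and 4.69 in HSCs (difference 1.74, adjusted p = 0.036). Fbp1, a gluconeogenic enzyme, differed by 1.3, Pglyrp1, a peptidoglycan-binding granule protein, by 1.42 and Mylpf, a myosin light chain, by 1.48.

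The short RNA genes among them were Mir24-2 (10.47), Mir8113 (-6.45) and Snora47 (-6.24). Mir24-2 and Mir8113 appear to rest on few reads, and no reads were inferred for Snora47. For Mir24-2 the smallest number that fits is 1 read in each LSK library with RBCs.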

How the results depend on the processing

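The number of genes that rose lay within 1.5 times of 112 under the other pseudocounts, filters and scalings and in the 4 LSK libraries alone. Without the fold threshold it was 308 higher and 156 lower, and with genes that overlap another gene left out, an alternative chosen after seeing the data, 70 rose. Falls numbered 8 without the filter and 8 without the trend. The genes whose effect differed between LSK cells and HSCs numbered 2 without the filter, 5 without the trend, 31 at an adjusted p under 0.10 and 23 without short RNA genes. With each LSK library left out in turn, 59 to 88 genes rose (59 without the first library with RBCs, 69 without the second, 74 without the first without RBCs), 10 to 13 fell and 6 to 20 differed (8 without the first library with RBCs, 6 without the second, 20 without the second without RBCs). The lone library of a group was then assumed to vary like the other groups. Of 68 named called genes, 39 kept the call without any single LSK library and 29 lost it without at least 1. The replicate block gave 105 higher, 13 lower and 10 differing. Deviations of same-numbered samples had r = -0.0833, with only 2 pairs, so the numbers were not taken as pairs. Quantile scaling set Ftl1 to 0. With a library left out, the Esam log2 fold change ran from -0.08631 to 0.2374 (-0.05354 in another of these fits), the Itga2b log2 fold change from -0.01299 to 0.05952, the Klrb1c log2 fold change from -0.6338 to 0.09393 and the Siglecf log2 fold change from -0.09426 to 0.3518 (-0.005469 in another), none of them past the threshold. Absolute depth is unknown, so no counting interval was given.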

Other observations

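Several rises outside the gene lists concern receptors and enzymes, chosen here after their values were seen. Gpx3, a secreted glutathione peroxidase, was at 8.92 and 7.39 FPKM without RBCs and 28.3 and 33.1 with RBCs (log2 fold change 1.79, limma adjusted p = 4.8e-04). Cd33, a sialic acid-binding receptor of myeloid cells, was at 6.36 and 5.47 against 17.5 and 24.6 (log2 fold change 1.66). Nedd9, a scaffold of integrin signaling, was at 3.59 and 6.39 against 16.7 and 15.5 (log2 fold change 1.55). The libraries with RBCs lay above those without in all 3.

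Cxcr5, a chemokine receptor known from lymphocytes, rose by 1.28. Hcar2, a receptor for hydroxy-carboxylic acids, was at 0.833 and 0.709 FPKM against 2.62 and 4.34 in LSK cells (log2 fold change 1.31) and at 0.039 or less without RBCs in HSCs. Aqp3, a channel for water and glycerol, rose by 1.19, and Acp5, an acid phosphatase of osteoclasts and macrophages, by 1.16.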
